A study of Mus musculus with 4 samples.

Results

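Poly(A) RNA was profiled in macrophages that had been differentiated in culture from mouse bone marrow. The library described here came from control cells (Spic+/+) that had been kept with hemin, the oxidised form of heme, for 18 h and were then left for 4 h with no lipopolysaccharide (LPS). The series also holds 1 library each of control cells given 100 ng/ml LPS for the last 4 h, of Spic-/- cells without LPS and of Spic-/- cells with the same LPS dose, and every culture received hemin. The hemin dose is 40 µM in the protocol and carries the same number in mM in the sample descriptions. The sample titles call the Spic-/- cells a conditional knockout, and the allele and Cre driver are not stated in the sources used here. The series asks whether the heme-inducible transcription factor Spi-C lowers some of the genes driven by Toll-like receptors. The present account ranks the genes of the control library without LPS by their absolute level, and gives values of the other libraries only side by side, with no test. No library without hemin was analysed here, so nothing here measures a response to hemin.

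Values are FPKM, fragments per kilobase of transcript scaled for library size. Because FPKM is a per-length unit, levels of different genes can be set side by side. Of 23284 gene rows, 22505 were ranked, after leaving out the 779 rows whose symbols start with Mir, Snor, Scar or Rnu. The prefix Scar also removed 6 protein-coding genes, among them the lysosomal membrane gene Scarb2 at 44.2 FPKM and the lipoprotein receptor gene Scarb1 at 32.1 FPKM. The group has 1 library, so no level has a replicate error and no test was made. The precision given is that of counting alone, from an estimated 15.6 fragments per kilobase at 1 FPKM. For 1 kb of effective length, the 95% Poisson interval at 1 FPKM runs from 0.567 to 1.63 FPKM, and is wider above than below. The mean half-width of the interval is 53.4% at 1 FPKM, 16.03% at 10 FPKM, 4.997% at 100 FPKM and 1.57% at 1000 FPKM. One fragment in a 2 kb transcript equals 0.0358 FPKM, and a count of 0 there allows up to 0.107 FPKM (3 fragments). A gene listed at 0 need not be absent. Rpl26, a ribosomal protein gene that every cell uses, is listed at 0 FPKM beside a nearly identical pseudogene row, Gm15772, at 1237 FPKM. The reason for that 0 was not tested.

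Macrophages clear dying red blood cells and break down their heme. Heme oxygenase opens the heme ring and frees its iron, biliverdin reductases process the pigment that is left, and the iron is stored in shells of ferritin heavy and light chains or exported by ferroportin. Iron regulatory proteins block ferritin translation and protect the transferrin receptor mRNA when iron is scarce. Macrophages are also known for a large lysosomal system, for antigen presentation, and for receptors of the innate immune system.

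The transcriptome was steep. A single pair of genes, Ftl1 and Fth1, took 8.28% of the summed FPKM of all ranked genes, the 10 most abundant genes took 15.5%, the first 100 took 37.1% and the first 1000 took 71.0%. The 235 most abundant genes were enough for 50% of the sum, and the last of them stood at 306 FPKM. At the other end, 8047 genes (35.8%) were listed at 0, and 10408 (46.25%) reached 1 FPKM. The median was 0.489 FPKM over all ranked genes and 10.8 FPKM over those at 1 FPKM or more. Only 695 genes reached 100 FPKM, 52 reached 1000 FPKM and 2 reached 10000 FPKM.

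**Figure D1:**
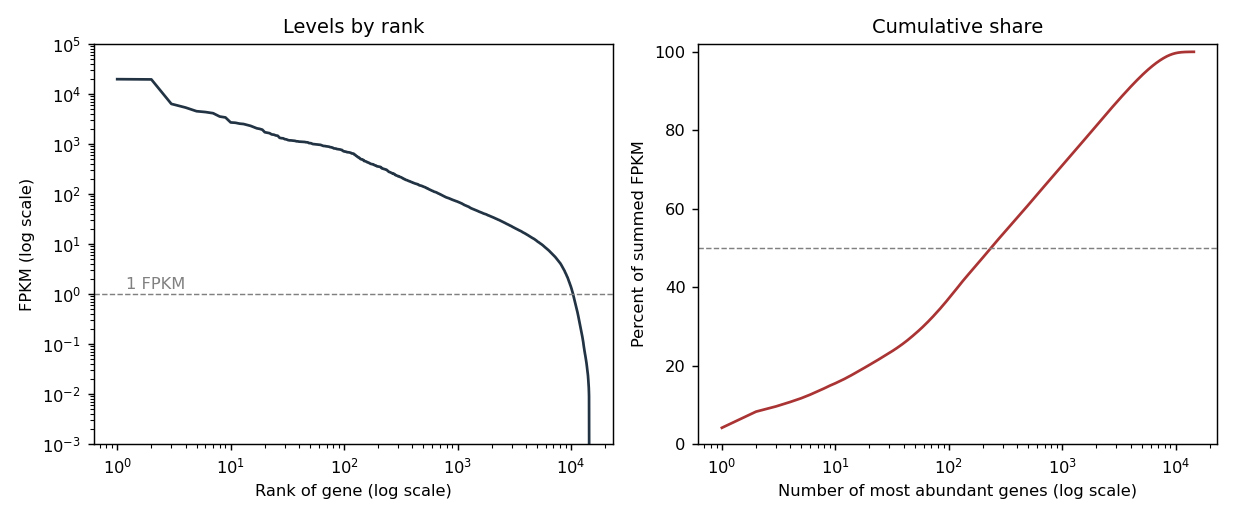
The left panel plots FPKM (log scale) against the rank of each gene above 0 (log scale), and the right panel plots the share of summed FPKM (percent) held by that many of the most abundant genes (log scale), for the 1 control library without LPS. The first 2 genes stand well above the rest, and the cumulative curve crosses 50% (dashed line) at 235 genes.

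Ferritin led the ranking. Ftl1, the light chain gene (chromosome 7, 45457944 to 45459884, minus strand, GRCm38), stood at 19784.5 FPKM. Fth1, the heavy chain gene that carries the ferroxidase activity (chromosome 19, 9980598 to 9985098, plus strand), stood at 19563.4 FPKM, 1.12% lower. Their counting intervals at 1 kb of effective length, 19710 to 19850 and 19490 to 19630 FPKM, did not meet, and the spread between cultures, which could exceed this gap, is unknown. The gene of the mitochondrial ferritin, Ftmt, was listed at 0. Ferritin mRNA was thus held almost evenly by the light and heavy chain genes, each at more than 3 times the level of the next gene, Lyz2.

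Genes of heme breakdown and iron export stood high. The inducible heme oxygenase gene Hmox1 was at 3396 FPKM, the 9th highest level of all genes, against 56.7 FPKM for the constitutive form Hmox2, a ratio of 59.9. The biliverdin reductase genes Blvrb and Blvra were at 474 and 79.9 FPKM. The heme transporter gene Slc48a1, which moves heme out of the phagolysosome, was at 443 FPKM, and the phagosomal metal transporter gene Slc11a1 was at 407 FPKM. Slc40a1, the gene of ferroportin, the iron exporter, was at 395 FPKM. These members span the path from heme import into the cytosol to iron export, and each is within the first 200 genes except Blvra and Hmox2.

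Genes that serve iron uptake were lower and uneven, with the transferrin gene Trf at 45.0 FPKM, the metal transporter gene Slc11a2 at 29.7 FPKM and the ferrireductase gene Steap3 at 13.1 FPKM. The transferrin receptor gene Tfrc was at 5.37 FPKM, so that the level of Fth1 was 3644 times that of Tfrc. Cd163, the hemoglobin-haptoglobin receptor gene, was at 0.274 FPKM. The heme exporter gene Mfsd7b (Flvcr1) was at 16.4 FPKM and Spic itself at 53.1 FPKM, a rank of 1295. Hamp, the hepcidin gene, Hephl1 and Mfsd7c were listed at 0, and the ferrireductase gene Steap4 was at 0.0654 FPKM. Of the 46 members of the heme and iron list, which holds no ferritin gene, 39 (84.8%) reached 1 FPKM, against 46.25% of all ranked genes, and their median was 15.6 FPKM. Hmox1 alone made up 56.9% of the list's summed FPKM, so the list's share of all FPKM, 1.26%, is mostly that of 1 gene.

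The antioxidant list, which joins targets of the transcription factor NRF2 with other redox enzymes, had 41 of 42 members at 1 FPKM or more and a median of 82.9 FPKM. Prdx1, a peroxiredoxin gene, was at 4529 FPKM and ranked 5th of all genes. Sqstm1, the gene of the autophagy receptor p62, was at 1199 FPKM, and Sod1, the cytosolic superoxide dismutase gene, at 809 FPKM. Esd and the pentose phosphate enzyme gene Taldo1 were at 764 and 758 FPKM, and the glutathione peroxidase gene Gpx1 at 577 FPKM. The member under 1 FPKM was the metallothionein gene Mt3 at 0.388 FPKM. The peroxiredoxin genes were far from equal, with Prdx1 at 12.2 times the level of Prdx5 (372 FPKM).

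Lyz2, the lysozyme M gene that is widely used as a myeloid marker, was next after ferritin at 6340 FPKM, and its neighbour Lyz1 was at 716 FPKM (99th). The level of Lyz2 was 8.86 times that of Lyz1. Their annotated transcripts are 95.8% identical over 1264 aligned bases, so fragments from either gene can be assigned to the other, and the split between them is uncertain. The RefSeq start of Lyz2 lies 49 bases inside the GENCODE M21 transcript used for lengths, while the starts of Lyz1 agree between the annotations. The 51 bases just before the outermost annotated start of Lyz2, and the stretch of Lyz1 at the same distance from its RefSeq start, are shown because these neighbours differ in level. Both lie on chromosome 10, minus strand, and the sequences are from RefSeq on GRCm38.p6, with the bases that differ in capitals (43 of 51 are the same).
Lyz2 chr10:117282322-117282372: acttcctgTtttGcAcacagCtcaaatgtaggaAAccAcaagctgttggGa
Lyz1 chr10:117292918-117292968: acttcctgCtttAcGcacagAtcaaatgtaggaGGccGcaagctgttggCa
Of the 150 bases before these, compared without gaps, 90 differ. The stretch carries no measurement of promoter activity here.

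The lysosome followed. Ctsd, an aspartic protease gene, stood at 4129 FPKM (7th), and the cysteine protease genes Ctss, Ctsb and Ctsl at 2398, 1648 and 1464 FPKM. The inhibitor genes Cstb and Cst3 were at 936 and 898 FPKM. Of 17 cathepsin and cystatin genes 14 reached 1 FPKM, with a median of 183 FPKM, while Ctsw was at 0.0625 FPKM and the neutrophil cathepsin gene Ctsg was listed at 0. Together they took 2.74% of summed FPKM. Cathepsin mRNA was thus concentrated in 4 genes.

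Among the 57 members of a further lysosomal list 56 reached 1 FPKM, and the median was 42.6 FPKM. This list also holds the lipid droplet gene Plin2 and the transcription factor genes Tfe3, Tfeb and Mitf. Psap, the gene of the saposin precursor that helps break down sphingolipids, led the list at 2700 FPKM and ranked 10th of all genes. Gpnmb, a membrane glycoprotein gene, followed at 1299 FPKM, then Creg1 at 788, the acid lipase gene Lipa at 783, Cd68 at 706 and Grn, the progranulin gene, at 647 FPKM. The member under 1 FPKM was Rnaset2a at 0.000705 FPKM, beside its close copy Rnaset2b at 3.89 FPKM. Such near-identical neighbours cannot be separated with certainty.

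The vacuolar proton pump acidifies the lysosome. Of its 23 genes 18 reached 1 FPKM, with a median of 97.5 FPKM. The membrane ring gene Atp6v0c was highest at 610 FPKM, followed by Tcirg1 at 316 and Atp6v0b at 306 FPKM. Atp6v1b1, Atp6v1c2 and Atp6v1g3, forms known from other tissues, were listed at 0. Where a subunit has several genes the levels were unequal, as with Atp6v1b2 at 218 FPKM beside Atp6v1b1 at 0.

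Lipid genes were uneven. Apoe, the apolipoprotein E gene, was at 2555 FPKM, the lipoprotein lipase gene Lpl at 1556 FPKM, the fatty acid and scavenger receptor gene Cd36 at 923 FPKM, and Trem2, a lipid-sensing receptor gene, at 699 FPKM. Plin2, which coats lipid droplets, was at 553 FPKM. Of 43 members 40 reached 1 FPKM, but the median was 13.6 FPKM, and Apoc4 was listed at 0. Uptake and storage genes therefore stood far above the middle of the list.

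**Figure D2:**
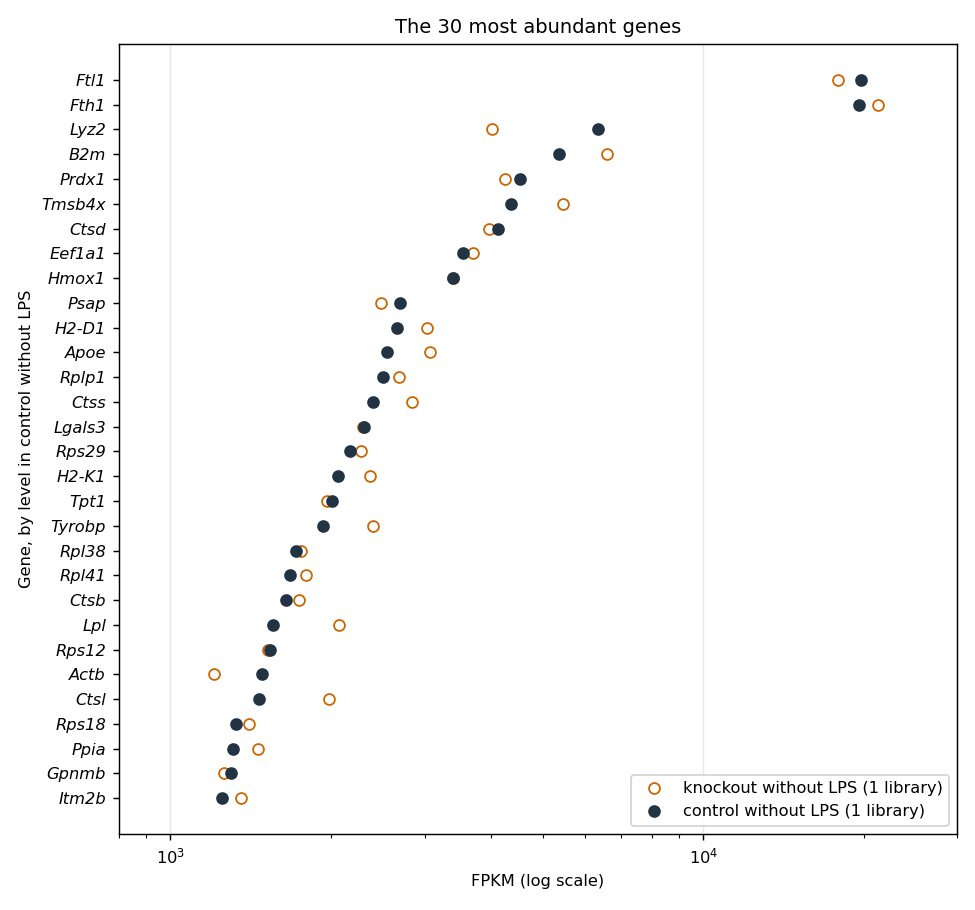
The 30 most abundant genes of control macrophages without LPS, in order, with FPKM on a log scale (filled points), and the same genes in the knockout library without LPS (open points), 1 library each. Ftl1 and Fth1 stand at 19785 and 19563 FPKM in control, and the 30th gene, Itm2b, is at 1251 FPKM.

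Antigen presentation was uneven between classes. B2m, the light chain gene of MHC class I, was at 5361 FPKM and ranked 4th, or 26th by FPKM times exonic length. The heavy chain genes H2-D1 and H2-K1 followed at 2661 and 2060 FPKM, then the nonclassical genes H2-T23 at 335 and H2-Q4 at 302 FPKM. All 21 members of the class I list reached 1 FPKM, with a median of 82.9 FPKM. Beside the chain genes, this list holds genes that make or load the peptides, such as Psmb8, Tap1 and Tapbp, and the regulator gene Nlrc5. Heavy chain genes share much sequence, so the split among them is uncertain.

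Class II genes were low. The class II beta and alpha chain genes H2-Ab1 and H2-Aa were at 17.3 and 17.8 FPKM, the invariant chain gene Cd74 at 49.2 FPKM and H2-Eb1 at 5.34 FPKM. The master regulator gene Ciita was at 0.0524 FPKM, and H2-Ob and H2-Ea-ps were listed at 0. Of 13 list members 8 reached 1 FPKM, with a median of 14.6 FPKM. The list's 2 highest values belonged to lysosomal genes that process antigen, Ctss and the thiol reductase gene Ifi30 (237 FPKM).

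Receptors and signalling adaptors of myeloid cells formed the next layer. Tyrobp and Fcer1g, whose products couple many activating receptors to kinases, were at 1937 and 1107 FPKM. The inhibitory receptor gene Lilrb4 was at 902 FPKM, and the F4/80 gene Emr1 at 439 FPKM. The macrophage growth factor receptor gene Csf1r was at 319 FPKM, whereas Kit was at 0.0129 FPKM and Flt3 was listed at 0. Of 50 such genes 46 reached 1 FPKM, with a median of 64.3 FPKM. Receptor levels lay below those of the shared adaptors.

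Each Fc gamma receptor gene was low beside Fcer1g, which encodes the signalling chain of the activating forms. Fcgr3 was at 201 FPKM, Fcgr1 at 84.5, Fcgr4 at 45.3 and the inhibitory form Fcgr2b at 15.3 FPKM. The NADPH oxidase, which makes superoxide, had all 7 genes between 84.7 FPKM (Rac2) and 686 FPKM (Cyba), with the catalytic subunit gene Cybb at 203 FPKM. The C1q genes of complement were at 789 (C1qc), 778 (C1qb) and 494 FPKM (C1qa).

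Scavenger and lectin receptors ranged over the whole scale. Clec4d, a C-type lectin gene, stood at 1037 FPKM, ahead of Cd36 and the class A scavenger receptor gene Msr1 (401 FPKM). Cd209a, Cd209b, Stab2 and Timd4 were listed at 0, and Olr1 was at 0.0190 FPKM. Of 30 members 22 reached 1 FPKM (median 20.4 FPKM). The Ms4a membrane proteins were split, with Ms4a7 at 1085 FPKM (46th), Ms4a6d at 341 and Ms4a6c at 149.2 FPKM, and 8 of the 16 listed at 0.

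Toll-like receptor genes were at modest levels before any LPS. Unc93b1, which carries nucleic acid-sensing receptors to endosomes, was at 200 FPKM, Tlr13, a receptor for bacterial ribosomal RNA, at 182 FPKM, and Cd180 and its partner Ly86 at 172 and 114 FPKM. The LPS co-receptor gene Cd14 was at 114 FPKM and its partner Ly96 (MD-2) at 56.4 FPKM. Tlr4, the LPS receptor gene, was at 28.5 FPKM, so that the level of Tlr13 was 6.39 times that of Tlr4. Tlr11 was at 0.0217 FPKM and Tlr12 was listed at 0. Of the 22 members 18 reached 1 FPKM, with a median of 18.8 FPKM, and all 15 inflammasome genes did so, led by Casp1 at 155 FPKM.

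Genes of secreted signals were low at the median. The median cytokine or growth factor gene was at 2.37 FPKM and the median chemokine gene at 2.93 FPKM, both above the 0.489 FPKM of all ranked genes but below the medians of the lysosomal, lipid, MHC and Toll-like receptor lists. Grn (647 FPKM), the osteopontin gene Spp1 (477 FPKM), Mif and Igf1 (192 FPKM each) and Tgfb1 (89.6 FPKM) were the highest of 46 cytokine and growth factor genes. Tnf was at 48.99 FPKM and Il1b at 1.37 FPKM. Csf2, Csf3, Ifng, Il12a, Il12b, Il23a, Il33 and Ltb were listed at 0. Tnf was the 6th highest of the list and the inflammatory interleukin genes lay below it.

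Of 33 chemokine genes 20 reached 1 FPKM. The highest were Ccl5 at 512 FPKM, Pf4 at 327, Ccl2 at 271, Ccl9 at 260, Ccl3 at 179 and Ccl6 at 140 FPKM. Ccl1, Ccl17, Ccl20, Ccl24 and Cxcl13 were listed at 0. The CC chemokines among them attract mainly monocytes and lymphocytes, and the neutrophil-attracting genes were lower, with Cxcl2 at 27.7 and Cxcl1 at 2.94 FPKM.

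Inducible effector and feedback genes had a higher median than those of secreted signals. Of 35 members 31 reached 1 FPKM, with a median of 17.8 FPKM, and Atf3, Saa3, Nfkbia, Junb, Zfp36 and Dusp1 were the highest, at 158, 129, 106, 88.5, 77.6 and 77.1 FPKM. Nfkbia encodes the main inhibitor of NF-kB, and Zfp36 and Dusp1 encode factors that shorten inflammatory signals.

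Interferon-stimulated genes were present at rest. Of 34 members 33 reached 1 FPKM, with a median of 15.6 FPKM, and Ifitm3, Bst2 and Irf7 were at 436, 278 and 259 FPKM. The classical activation gene Nos2 was at 0.0338 FPKM, and the alternative activation gene Arg1 at 0.353 FPKM. Of 15 alternative activation markers 5 reached 1 FPKM, Tgm2 (38.5 FPKM), Il4ra (21.1), Mrc1 (20.9), Clec10a (8.57) and Egr2 (1.76), and Retnla, Chi3l4, Ccl17 and Ccl24 were listed at 0. The median of that list, 0.353 FPKM, lay under that of all ranked genes.

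**Figure D3:**
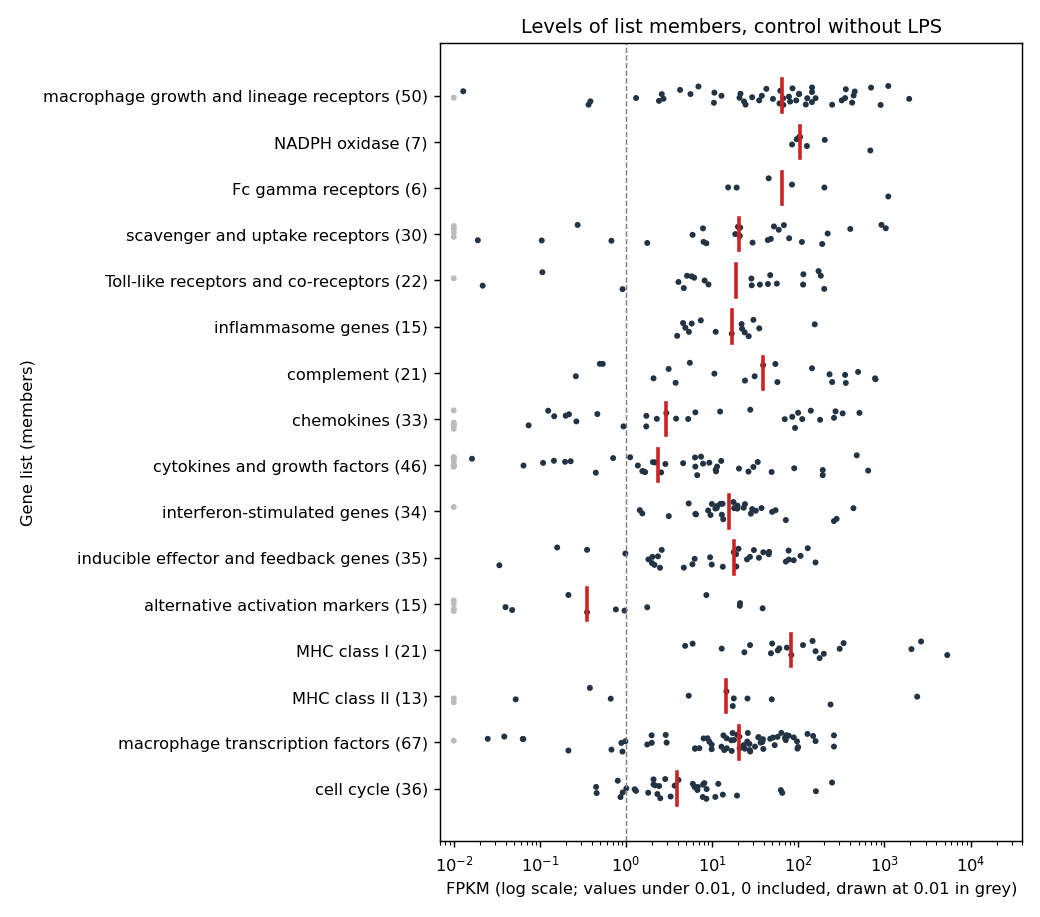
Levels of the members of 16 gene lists in control macrophages without LPS, FPKM on a log scale, 1 point per gene, with values under 0.01 drawn at 0.01 in grey, the median of each list in red and 1 FPKM dashed. The medians run from 0.353 FPKM for alternative activation markers to 105 FPKM for the NADPH oxidase.

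Transcription factor genes stood 1 or more orders of magnitude below the top. Sfpi1, the gene of PU.1 that specifies the myeloid lineage, was highest of 67 at 259 FPKM, at 4.88 times the level of the related Spic. Irf7 was also at 259 FPKM, Atf3 at 158, Irf5 at 148.6 and Atf4 at 128 FPKM. Gata1 was listed at 0, and Gata2, Gata6, Bach2 and Spib lay between 0.0248 and 0.0643 FPKM. The median was 20.7 FPKM and 57 members reached 1 FPKM.

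Genes that every cell uses filled many of the upper ranks. Cytosolic ribosomal protein genes took 13.5% of summed FPKM, more than any other list, with 47 of the 100 most abundant genes among their 87 members and a median of 766 FPKM. Weighted by exonic length, as FPKM times length, their share was 7.445%. Rplp1 led at 2510 FPKM, followed by Rps29 at 2169, Rpl38 at 1720, Rpl41 at 1679, Rps12 at 1537 and Rps18 at 1330 FPKM. The elongation factor gene Eef1a1 was at 3546 FPKM and Tpt1 at 2008 FPKM. A pair of housekeeping genes often used as references, Actb at 1483 and Gapdh at 666 FPKM, differed by 2.23 times.

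The cytoskeleton was broad. All 53 members of the actin cytoskeleton list reached 1 FPKM, with a median of 152 FPKM, and took 3.83% of summed FPKM. Tmsb4x, whose product binds actin monomers, was at 4355 FPKM (6th), and its relative Tmsb10 was at 316 FPKM. The list also holds Vim, the gene of the intermediate filament protein vimentin, at 986 FPKM. Tubulin genes stood lower, with Tubb4b at 128 and Tubb5 at 112 FPKM.

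Small calcium- and sugar-binding proteins also ranked high. Lgals3, the galectin 3 gene, was at 2305 FPKM (15th), and Lgals1 at 682 FPKM, while Lgals7 and Lgals12 were listed at 0. Among annexin genes Anxa1, whose product limits neutrophil recruitment, led at 686 FPKM, followed by Anxa2 at 374 and Anxa5 at 263 FPKM. The S100 genes S100a6, S100a4 and S100a11 were at 541, 492 and 428 FPKM, and 6 of the 16 S100 genes were listed at 0. In each of these families a few members carried most of the level.

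Surface and secreted proteases were led by Adam8, a metalloprotease gene, at 967 FPKM (59th). Mmp12, the macrophage elastase gene, was at 262 FPKM, and the urokinase gene Plau at 68.5 FPKM. Of the 26 protease and inhibitor genes 22 reached 1 FPKM, with a median of 33.6 FPKM. No other metalloprotease gene in the list came within 3 times of Adam8.

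All 25 glycolysis genes reached 1 FPKM. The pyruvate kinase gene Pkm2 and the aldolase gene Aldoa were at 1155 and 1044 FPKM, with Gapdh, Pgk1, Pgam1 and Ldha at 666, 417, 359 and 350 FPKM. All 40 chaperone genes did so too, with Ppia at 1308, the constitutive Hspa8 at 1083 and Hsp90ab1 at 527 FPKM. The stress-inducible Hspa1a and Hspa1b, which are near-identical copies, were at 1.98 and 1.92 FPKM. The chaperone level was thus carried by constitutive forms. In the integrated stress response list, 21 of 22 genes reached 1 FPKM, led by the amino acid transporter gene Slc3a2 at 706, Atf3 at 158 and Atf4 at 128 FPKM.

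Nuclear-encoded mitochondrial genes were broadly present. All 76 mitochondrial ribosomal protein genes reached 1 FPKM, with a median of 29.7 FPKM, which is far under the 766 FPKM of their cytosolic counterparts. Complex I had 35 of 36 subunit genes at 1 FPKM or more, with Ndufs5 at 0.0160 FPKM the exception, and a median of 83.3 FPKM. The Ndufs5 value is under that of 1 fragment in a 2 kb transcript (0.0358 FPKM). It need not mean that the gene is absent, and the reason for it was not tested. Cox7b2, Cox8b and Cox8c, forms of cytochrome oxidase subunits known from other tissues, were listed at 0, beside Cox6b1 at 394 FPKM. Proteasome genes had a median of 165 FPKM and ATP synthase genes 191 FPKM, with all 16 of the latter between 105 and 457 FPKM.

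**Figure D4:**
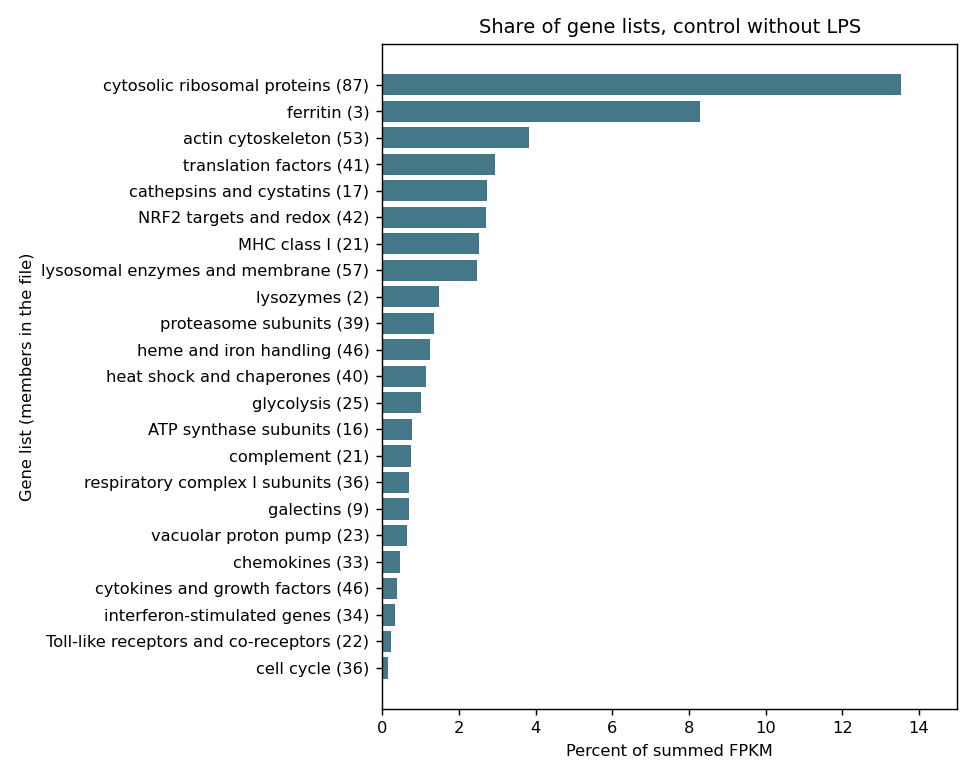
Share of summed FPKM (percent, axis from 0) held by 23 gene lists in the 1 control library without LPS, with the number of members in brackets (lists overlap, so shares do not add up). Cytosolic ribosomal proteins (13.5%) and ferritin (8.28%) hold the most, and the ferritin share rests on 2 genes.

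Some ribosomal protein genes were listed low beside a nearly identical row, and how fragments were assigned between such rows was not tested. Rpl26 was listed at 0 while the pseudogene Gm15772 was at 1237 FPKM (31st). Rpl30 was at 7.72 FPKM while the pseudogene Gm12191 was at 1107 FPKM. Gm9846 and Rps27, at 966 and 962 FPKM, are identical over 341 aligned bases. The windows below show why such rows are uncertain: each is 61 bases of the annotated transcript (GENCODE M21), with the only base that differs in the window in capitals.
Gm15772: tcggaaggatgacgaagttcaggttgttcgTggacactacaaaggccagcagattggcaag
Rpl26: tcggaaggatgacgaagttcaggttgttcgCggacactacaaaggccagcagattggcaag
Gm12191: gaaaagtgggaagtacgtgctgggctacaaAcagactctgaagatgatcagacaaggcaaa
Rpl30: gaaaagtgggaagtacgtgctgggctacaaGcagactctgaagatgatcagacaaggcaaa
Gm15772 differs from Rpl26 at 2 of 438 aligned bases, and Gm12191 from Rpl30 at 1 of 348. Of 16 pseudogenes or unnamed rows at 100 FPKM or more, 10 were near copies of a coding gene (at least 97% identity over at least 80% of the transcript), and 8 of the 10 stood above that gene. Copies under 100 FPKM were not compared, so the 8 of 10 follows in part from that filter and is no rate for all copies. The near copies summed to 0.945% of FPKM, and adding the 3 ribosomal copies raises the ribosomal share from 13.5% to 14.2%.

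The 100 most abundant genes had short annotated exonic lengths, taken as the union over isoforms. Their median was 2053 bases (99 matched), against 4440 bases for genes at 1 FPKM or more. FPKM divides by length, so this difference is not independent of the ranking. Of the 100, 97 were protein-coding and 2 were pseudogenes. The letters TATAAA, the core of the TATA box, were searched on both strands from 40 to 20 bases before the RefSeq start site. A gene was counted if any of its promoters matched. The letters occurred in 5 of the 77 top genes with a RefSeq promoter (6.49%) and in 767 of all 27025 genes with one (2.84%), and no test was made of this difference. These 5 windows are shown with the match in capitals, as GRCm38.p6 plus strand, and 4 of them lie inside the gene as GENCODE M21 draws it, past its outermost start.
Prdx1 chr4:116685559-116685579: actttgtaggcTATAAAagca
H2-D1 chr17:35263054-35263074: ccgcggacgctggtTATAAAg
Ppia chr11:6415827-6415847: cccgaaccgggTATAAAggaa
Vim chr2:13574271-13574291: aacagtgtTATAAAagcagcg
Sod1 chr16:90220722-90220742: gccTATAAAagctccgtggcg
A match is a run of letters and not a measured site, and the other 72 genes lack only these letters in this window.

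Levels of cell type markers were set beside the label of the cells. The lists were chosen with earlier results of these data known, so their counts cannot test that label. Of all ranked genes 46.25% reached 1 FPKM, so marker counts near that share, as for neutrophil and B cell markers below, say little about those cells. All 12 macrophage markers reached 1 FPKM, from 18.5 FPKM (Mertk) to 6340 FPKM (Lyz2), with a median of 232 FPKM. Their sum was 10170 FPKM, most of it from Lyz2. Erythroid and mast cell markers had 0 of 9 and 0 of 9 at 1 FPKM, and all 8 hemoglobin genes were listed at 0. T and NK cell markers had 1 of 10 (Cd4, 1.24 FPKM), with Cd3d, Cd3e, Cd3g, Gzmb, Klrb1c and Ncr1 listed at 0. Neutrophil markers had 5 of 11, S100a8 the highest at 20.2 FPKM, with Mpo, Elane and Retnlg at 0, and dendritic cell markers 2 of 10, with Flt3, Clec9a and Siglech among those at 0. B cell markers had 4 of 10, Blnk the highest at 26.6 FPKM, with Cd79a, Ms4a1 and Pax5 among those at 0.

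Stromal markers were the clearest exception, and osteoclast markers also stood above the 46.25% of all ranked genes at 1 FPKM. Of 17 fibroblast and stroma genes 15 reached 1 FPKM, with a sum of 982 FPKM and a median of 56.4 FPKM. Acta2 was at 237 FPKM, Tagln at 110, Sparc at 110, Cxcl12 at 91.7, Col1a1 at 84.0 and Col1a2 at 83.9 FPKM, while Lum was at 0.0343 FPKM. Endothelial markers had 1 of 7 (Eng, 17.8 FPKM), megakaryocyte markers 1 of 6 (Pf4), eosinophil markers 1 of 5 (Ccr3, 8.54 FPKM) and osteoclast markers 5 of 8 (Acp5 the highest, 36.2 FPKM). In bulk RNA, few cells of a type and little RNA per cell cannot be told apart. The part of such cells in the levels of genes they share with macrophages, Cxcl12 and Acta2 among the lists above, was not tested.

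**Figure D5:**
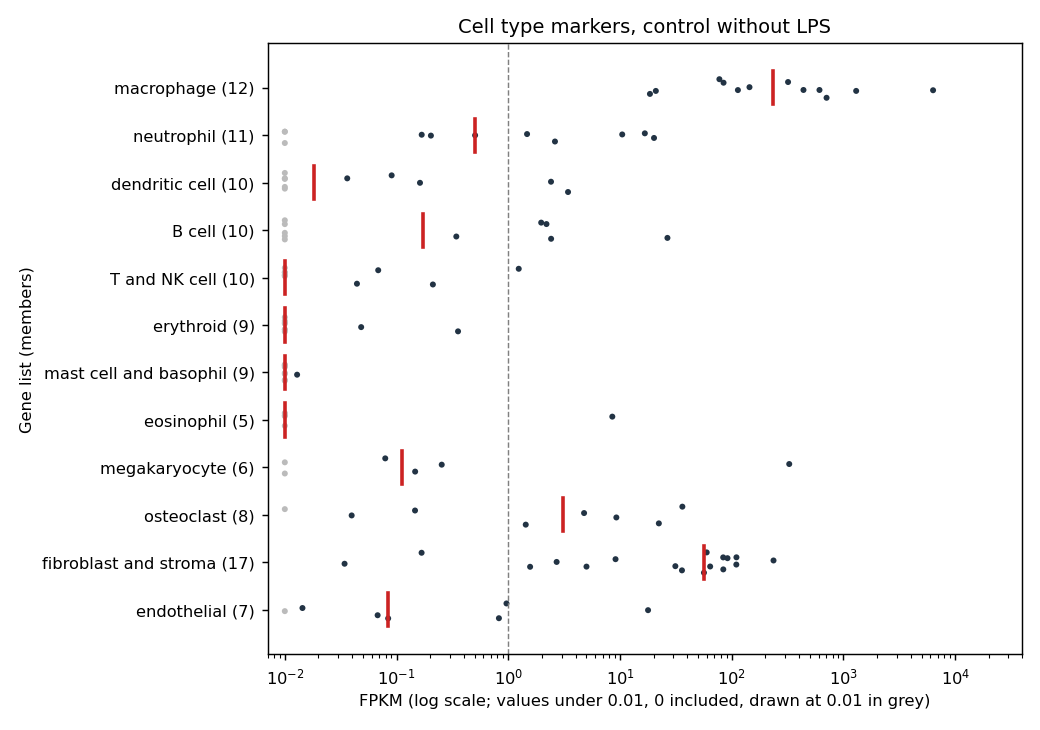
Levels of cell type markers in control macrophages without LPS, FPKM on a log scale, 1 point per gene, values under 0.01 drawn at 0.01 in grey, list medians in red and 1 FPKM dashed. The macrophage median (232 FPKM) and the stromal median (56.4 FPKM) stand highest.

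Gene families of sensory and epithelial cells were at or near 0. Of 1095 olfactory receptor genes 1 reached 1 FPKM, and of 318 vomeronasal receptor genes and 47 keratin genes 0 did. Replication-dependent histone genes, whose mRNAs normally lack a poly(A) tail, had 10 of 66 at 1 FPKM or more, with Hist1h2bc at 79.3 FPKM the highest. The part of poly(A) selection in this was not tested. Of 16 Bcl2 family genes 14 reached 1 FPKM, with the death effector gene Bax at 163 FPKM and the survival gene Mcl1 at 116 FPKM ahead of Bcl2 at 1.246 FPKM. Cell cycle genes had a median of 3.86 FPKM, with Pcna at 246 and the inhibitor gene Cdkn1a at 160 FPKM, while the proliferation marker gene Mki67 was at 0.862 FPKM.

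With 1 kb of effective length assumed for every gene, counting error separated most neighbours among the first 30 genes and few further down. Genes with a shorter effective length have wider intervals than this, and longer ones narrower. Intervals of adjacent genes met in 8 of 29 pairs of the first 30 and in 77 of 99 pairs of the first 100. In the first 30 the meeting pairs included Psap with H2-D1, Apoe with Rplp1, Lpl with Rps12 and Actb with Ctsl.

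The other 3 libraries are given as values, since no group has a replicate. Of the 100 most abundant genes 94 were also in the first 100 of knockout without LPS, 63 in control with LPS and 61 in knockout with LPS. Fth1 was at 19563, 21322, 29184 and 33243.8 FPKM in control and knockout without LPS and control and knockout with LPS, and Ftl1 at 19785, 17875, 19695 and 17538 FPKM, so the order of the pair differed between the libraries. Of the first 100 genes, 96 were within 1.5 times of their control level in knockout without LPS, and the others were Lyz2, Lyz1, Gm9846 and Rps27. The same share over all ranked genes was not computed. Gm9846 was at 966 and 1874 FPKM in control and knockout without LPS, and Rps27 went the other way, at 962 and 51.8 FPKM. These rows are identical over 341 aligned bases, so the split between them is uncertain and neither value can be read alone. Lyz2 and Lyz1 share sequence too. Ferritin took 8.28%, 7.78%, 6.90% and 6.44% of the summed FPKM in the same order.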

How the data were processed

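RNA-seq of 4 libraries was deposited by the authors as FPKM per gene, 1 file per library, without read counts. RNA was isolated with RNeasy columns and libraries were built with a stranded TruSeq mRNA kit, per the labels' protocols. The tools listed in the submitters' processing notes are Cuffnorm 2.2.1, SAMtools 0.1.19, Bowtie2 2.2.3 and TopHat2 2.0.13, on build mm10. Their roles and the annotation are not given in the sources used here. FPKM values were ranked as deposited in the control library without LPS. Shares are of the sum over ranked genes. A row listed at 0 was never treated as absent. Fragments per FPKM were estimated from the spacing of low FPKM values over 352 genes with exonic length (GENCODE M21) less 210 bases, tested on simulated data, and exact 95% Poisson intervals cover counting error only. No test was made, as each group has 1 library, and it is not stated whether a library came from 1 or more animals. Genes were matched to lengths for 97.85% of rows, and near copies were found with BLAST 2.17.0. The members, 70 lists and the rules were chosen with earlier results of these data known, and some lists and families were added or trimmed after values were seen. Of the list symbols, 12 were not found. Named genes are the 30 most abundant, up to 6 highest members of each list, those at 0 or under 0.1 FPKM, and members of small lists. Others, such as Spic, Tfrc, Trf, Slc11a2, Steap3, Blvra, Hmox2, Cd163, Mfsd7b, H2-Eb1, Csf1r, Tlr4, Il1b, Cxcl1, Cxcl2, Arg1, Mt3, Prdx5, Tmsb10, Casp1, Hspa1a, Hspa1b, Bcl2 and Mki67, were chosen after their values were seen. Mitochondrially encoded genes were not analysed here. One marker gene is not reported here. Alternatives changed the rows kept, the level counted as expressed, the pseudocount, the length offset and the use of length.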

Additional observations from a re-analysis of the deposited data

Results flagged for a closer look

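The rows left out by their symbols held 4.959% of the summed FPKM of the file. Of the 773 small RNA rows among them, 746 were listed at 0, 13 stood at 100 FPKM or more and 5 at 1000 FPKM or more, and these 5 held 86.43% of the left-out sum. Mir1892 was at 9968 FPKM, Mir762 at 4181 FPKM and Mir686 at 3376 FPKM. Had they been ranked, Mir1892 would stand between Fth1 and Lyz2. The 8 highest of these rows are 76 to 109 bases long, which is shorter than the 210 bases taken off each length in the depth estimate, and FPKM divides by so short a length. The part of host transcripts in these values was not tested. All of the left-out rows lie outside the ranking, and no limit for a count of 0 was computed at such lengths.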

How the results depend on the processing

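The share of the 100 most abundant genes was 37.13% of summed FPKM, 38.87% with small RNA rows kept, 38.21% without unnamed features and 28.83% for FPKM times exonic length, which weights genes by fragments. The ferritin share was 8.278%, and 7.868%, 8.577% and 5.881% in the same order, and the ribosomal share 13.53%, and 12.86%, 14.02% and 7.445%. The exonic length is a union over isoforms and overstates many transcripts, so these fragment weights are rough. By that weighting the first 10 were Fth1, Ftl1, Lpl, Prdx1, Ctsb, Ctsd, Ctsl, Eef1a1, Gpnmb and Lyz2, while Tmsb4x moved from 6th to 15th, Hmox1 from 9th to 16th and B2m from 4th to 26th. Fragments per kilobase at 1 FPKM were 15.59, and 14.03 with whole lengths. Genes counted as expressed numbered 10408 at 1 FPKM, 14458 with any value above 0 and 7508 at 5 FPKM. Keeping the protein-coding Scar genes, chosen after seeing the data, moved none of 12 values. List medians on the log2 scale moved in 26 of 70 with a pseudocount of 0.1 and in 50 of 70 with 5, which follows from how the scale is built, and 41 of 65 moved when members under 1 FPKM were dropped. No paired analysis was possible because each group has 1 library. Levels under about 1 FPKM rest on few fragments, no value has a replicate, and the levels of genes with near copies are uncertain.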
